A study of Mus musculus with 68 samples.

Results

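The Dlk1-Dio3 miRNAs are a group of small RNAs made from 1 imprinted region of mouse chromosome 12, measured here in lung by small RNA sequencing. The group was taken as every mature miRNA, 5p or 3p arm, whose hairpin name is among 46 hairpins of this region. Of those hairpins, 35 had at least 1 row in the deposited small RNA table, which gave 45 mature miRNAs of 480 in all, and 10 hairpins had both arms. By place along the chromosome, 12 of the 45 lie in the Meg3 and Rtl1 antisense stretch, 2 in Rian and 31 in the stretch that runs from miR-379 to miR-410. Only 14 of the 45 carried a value in all 20 small RNA libraries, and these 14 could be tested among the 320 miRNAs with complete values; 338 of the 900 member values were unlisted.

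The lungs came from wild-type male mice of 2 inbred strains from The Jackson Laboratory: CAST/EiJ, derived from wild-caught mice, and C57BL/6J, the common laboratory strain. Part of each strain breathed 1,3-butadiene (BD), an industrial gas that damages DNA and is a known carcinogen in mice, for 6 hours on weekdays during 2 weeks, and the rest breathed clean air. The small RNA libraries were 3 of CAST/EiJ with BD, 7 of CAST/EiJ in clean air, 4 of C57BL/6J with BD and 5 of C57BL/6J in clean air, plus 1 library labelled CAST/EiJ with BD. That library is given apart because the choice of this group of miRNAs set it apart. RNA-seq of the same design had 5, 7, 6 and 5 libraries in that order of groups, plus the same numbered sample. Ages are not given in the sources used here, and nothing states whether libraries of a group came from separate animals, so p-values below measure the spread between these libraries, which may be technical.

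In mice the region is imprinted: Dlk1, Rtl1 and Dio3 are transcribed from the paternal chromosome, and the noncoding RNAs Meg3, Rtl1 antisense, Rian and Mirg from the maternal one. The miRNAs are cut from these maternal noncoding transcripts, so they are thought of as products of 1 long transcription unit, with miR-127, miR-136, miR-431, miR-433 and miR-434 lying antisense to Rtl1 and able to guide cleavage of its mRNA. The cluster is known for high levels in the embryo, the placenta and the adult brain, and for low levels in many other adult tissues.

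The mature sequences of the miRNAs the results turn on are shown because the seed, bases 2 to 8 from the 5′ end and here in capitals, sets which mRNAs a miRNA can pair with. Of the 45 members, 41 matched a RefSeq mature sequence (GRCm38.p6, a C57BL/6J assembly), all 41 on the plus strand of chromosome 12. From the Rtl1 antisense stretch these are:
miR-127-3p: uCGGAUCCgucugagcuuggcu
miR-434-3p: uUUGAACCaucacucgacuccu
miR-136-5p: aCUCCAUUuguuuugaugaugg
miR-136-3p: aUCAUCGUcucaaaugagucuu
From the stretch between miR-379 and miR-410 they are:
miR-411-5p: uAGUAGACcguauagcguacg
miR-411-3p: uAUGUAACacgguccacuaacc
miR-379-3p: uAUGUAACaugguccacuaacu
miR-300-3p: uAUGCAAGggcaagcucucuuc
miR-381-3p: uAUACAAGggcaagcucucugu
miR-541-5p: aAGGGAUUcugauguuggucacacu
miR-409-5p: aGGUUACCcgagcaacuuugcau
miR-409-3p: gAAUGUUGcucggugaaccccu

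The 41 sequences held 40 different seeds, and the 14 tested members held 14. Only miR-411-3p and miR-379-3p shared a seed, AUGUAAC, and these differ at U10C and U22C, written with the base of miR-379-3p first and positions counted from the 5′ end. miR-300-3p and miR-381-3p are near-identical, with 19 of 22 bases in common: they differ at G4A, which lies in the seed, and at U21G and C22U, written with the base of miR-300-3p first. Some values of these miRNAs were not whole numbers: 9 of 15 listed values of miR-379-3p, 7 of 15 of miR-411-3p, 4 of 20 of miR-300-3p and 3 of 20 of miR-381-3p. How the authors divided reads between near-identical miRNAs is not given in the sources used here, so the levels of these pairs are uncertain.

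The small RNA libraries held 2066588 to 8474182 miRNA counts and the RNA-seq libraries 10601756 to 50001571 gene counts. Levels below are in CPM, counts scaled to a common total of 1000000 per library after TMM, which evens out library composition. The library with 8 in its title, labelled CAST/EiJ with BD, fell below the range of all other CAST/EiJ libraries for 10 of the 14 tested members and inside it for 4, whereas it lay inside the range of the C57BL/6J libraries for 9, below it for 1 and above it for 4. Its 14 tested members summed to 2173 CPM, against 2744 to 3100 CPM in the other CAST/EiJ libraries with BD. In RNA-seq the same number had 1.23 CPM of Begain and 0.391 CPM of Mirg, against 0.205 to 0.408 CPM and 0.823 to 1.92 CPM in the other CAST/EiJ libraries with BD. Lung epithelial markers (Sftpc, Sftpb, Sftpa1 and Scgb1a1) were high in every group, with sums of 19273 to 31368 CPM. Number 8 is left out of every group mean and test below. Its values for the members and genes of the region are among those tested, so they are not independent grounds for leaving it out.

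Library titles also carry numbers, whose meaning is not given. In clean air, 5 of the 7 CAST/EiJ libraries and 1 of the 5 C57BL/6J libraries had numbers over 100, and the rest had 1 and 2 in CAST/EiJ and 3 to 6 in C57BL/6J; with BD the small RNA libraries had 7 to 10 in CAST/EiJ and 15 to 18 in C57BL/6J, and the RNA-seq libraries 7 to 12 and 13 to 18. Results were therefore also computed without the libraries numbered over 100, and with the contrast of small RNA numbers 1 to 10 against the others as a covariate. Within BD, strain cannot be told apart from these number series. The covariate is thus set by the clean air libraries alone, and it treats numbers 15 to 18 like those over 100. Whether these series behave alike was not tested, so that fit cannot decide comparisons that use C57BL/6J with BD.

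The most abundant member by far was miR-127-3p, which averaged 1615 CPM over all 20 libraries, number 8 included, and ranked 67th of the 320 tested miRNAs. The next were miR-541-5p at 180 CPM, miR-434-3p at 166 CPM and miR-411-5p at 124.4 CPM. The remaining 10 tested members averaged 6.73 to 58.0 CPM, and miR-329-5p, the lowest of them, ranked 317th. The other 13 tested members thus ranked 148th or lower.

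The cluster was higher in CAST/EiJ than in C57BL/6J in clean air. All 14 tested members had a fold change above 0 (log2), and 13 were called higher by edgeR's quasi-likelihood test with Benjamini-Hochberg adjustment over 320 miRNAs. The exception was miR-409-5p. Of all 320 miRNAs, 21.2% were called higher in the same comparison. The median log2 fold change was 0.98 for the 14 members, against -0.01 for all tested miRNAs. The 14 members summed to 2492 to 3782 CPM in CAST/EiJ in clean air, against 1551 to 1896 CPM in C57BL/6J in clean air. Without the libraries numbered over 100, which leaves CAST/EiJ numbers 1 and 2 against C57BL/6J numbers 3 to 6, all 14 members were called higher. In whole lung, fewer cells of a type and less RNA per cell cannot be told apart.

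**Figure D1:**
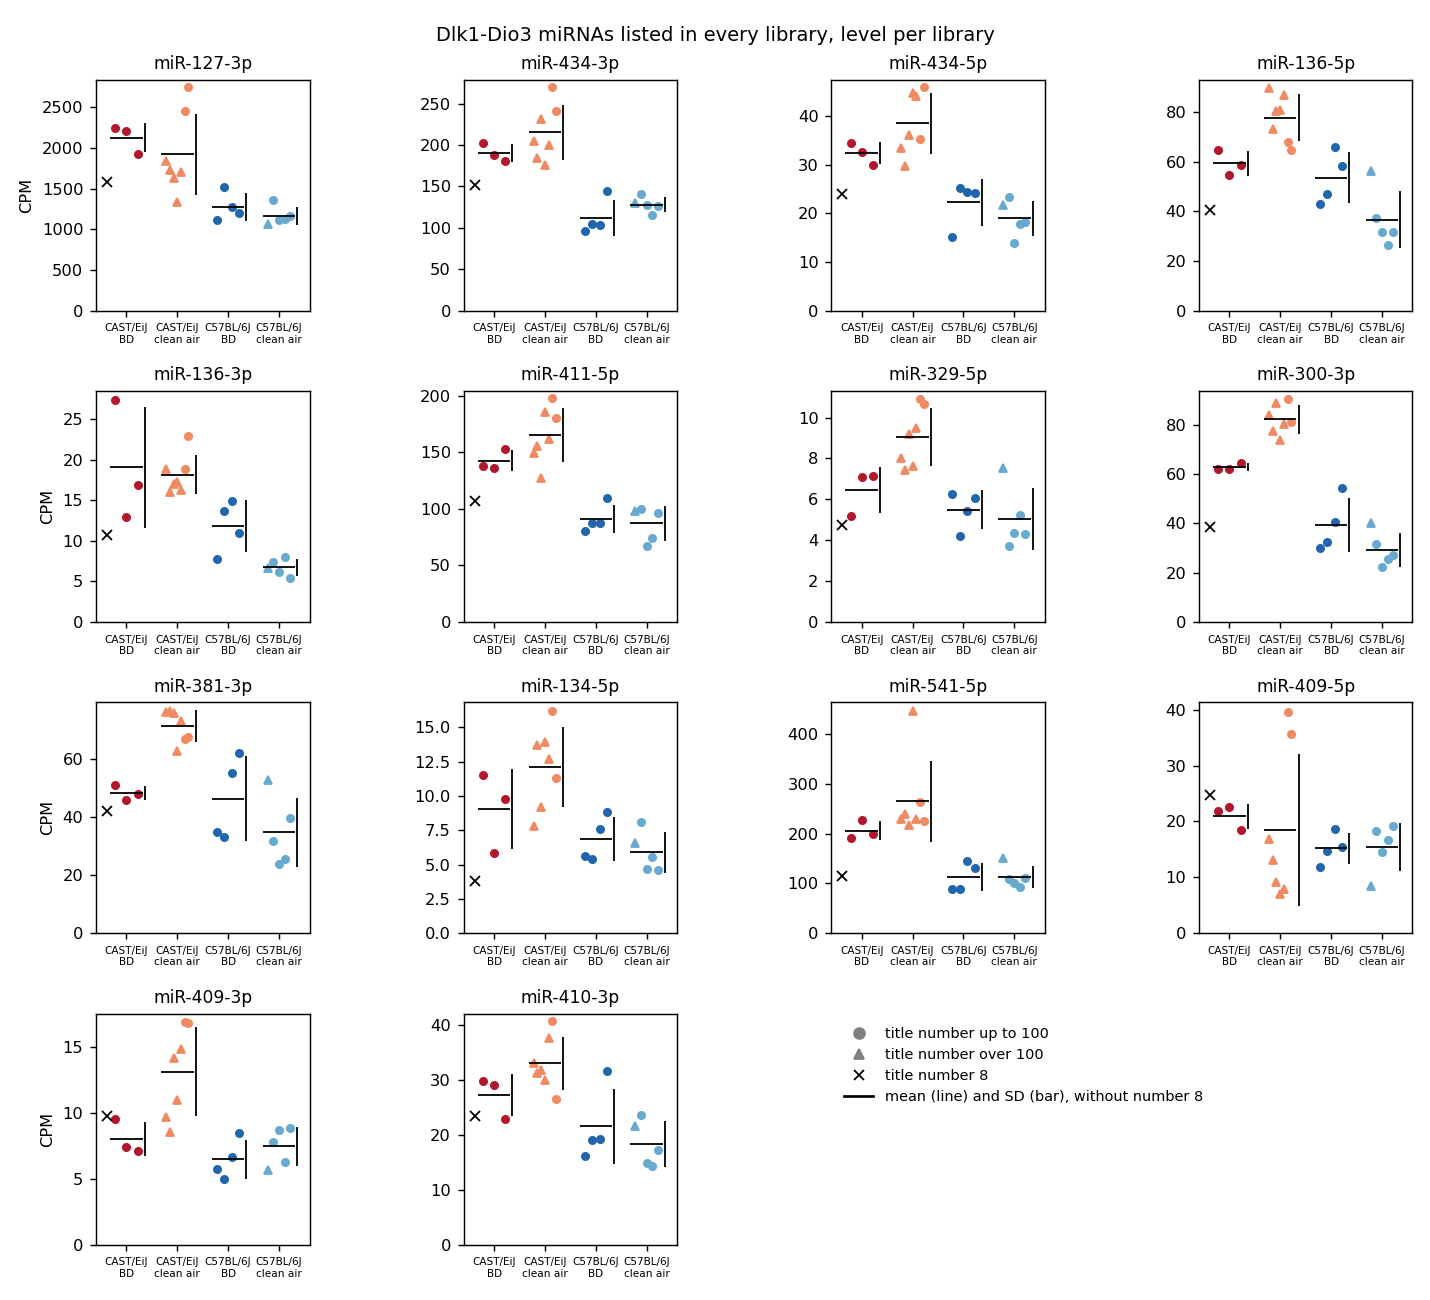
Level (CPM, linear axes from 0) of each tested member in each small RNA library, by group; horizontal lines are group means and vertical bars 1 SD, both without the library numbered 8 (cross), and triangles mark numbers over 100. For miR-300-3p the CAST/EiJ libraries in clean air lie between 73.8 and 90.2 CPM, all above the C57BL/6J libraries in clean air at 22.1 to 40.0 CPM.

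The largest strain difference in clean air was that of miR-300-3p. It had a lowest level of 73.8, a median of 81.2 and a highest level of 90.2 CPM in the 7 CAST/EiJ libraries, against 40.0, 31.4, 22.1, 25.4 and 27.2 CPM in the 5 C57BL/6J libraries. The 2 groups did not overlap, and the fold was 2.83 (log2 1.503 ± 0.15 SE, edgeR adjusted p = 1.72e-07). Its near-identical neighbour miR-381-3p reached 62.5, 73.1 and 76.4 CPM as lowest, median and highest in CAST/EiJ, against 52.7, 31.8, 23.9, 25.4 and 39.5 CPM in C57BL/6J. These groups also stood apart, at a fold of 2.07 (log2 1.05 ± 0.19, edgeR adjusted p = 0.000139).

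Both arms of miR-136, one of the miRNAs antisense to Rtl1, were higher in CAST/EiJ. The 3p arm had 16.02, 17.3 and 23.0 CPM as lowest, median and highest level in CAST/EiJ, against 6.59, 7.43, 6.12, 8.001 and 5.44 CPM in C57BL/6J. Every CAST/EiJ library lay above every C57BL/6J library, and the fold was 2.71 (log2 1.44 ± 0.21, edgeR adjusted p = 1.84e-05). The 5p arm had 64.7, 80.4 and 89.9 CPM in CAST/EiJ, against 56.3, 37.3, 31.8, 26.4 and 31.5 CPM in C57BL/6J, a fold of 2.14 (log2 1.10 ± 0.16, edgeR adjusted p = 2.08e-05). The groups stood apart, and the highest C57BL/6J value came from its only library numbered over 100.

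miR-541-5p, the second most abundant member, had 218, 230 and 445 CPM as lowest, median and highest in CAST/EiJ in clean air, against 152, 110, 100.8, 92.2 and 110 CPM in C57BL/6J. The groups did not overlap, and the value of 445 CPM belonged to a single library, one of those numbered over 100, while the other 6 reached at most 264 CPM. The fold was 2.35 (log2 1.23 ± 0.19, edgeR adjusted p = 2.84e-05). The call remained without the libraries numbered over 100.

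miR-127-3p, the most abundant member, had 1337, 1727 and 2753 CPM as lowest, median and highest in CAST/EiJ, against 1069, 1353, 1111, 1122 and 1161 CPM in C57BL/6J. Here the ranges met at their ends, with 1 CAST/EiJ library below the highest C57BL/6J library, and the fold was 1.65 (log2 0.72 ± 0.15, edgeR adjusted p = 0.000605). miR-434-3p and miR-411-5p, the other 2 of the 4 most abundant, did not overlap between the strains in clean air. They had folds of 1.68 (log2 0.75 ± 0.12, edgeR adjusted p = 4.27e-05) and 1.90 (log2 0.93 ± 0.13, edgeR adjusted p = 1.18e-05). In all, 9 of the 14 members had non-overlapping ranges with CAST/EiJ higher, while 10.9% of all tested miRNAs did.

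The other called members had folds in a narrow band. In the Rtl1 antisense stretch, miR-434-5p was higher by a log2 fold of 1.03. In the miR-379 to miR-410 stretch the values were 1.04 for miR-134-5p, known in rodent neurons for limiting the size of dendritic spines, 0.88 for miR-329-5p, 0.86 for miR-410-3p and 0.78 for miR-409-3p. By place, the 5 tested members of the Rtl1 antisense stretch had a median of 1.03 and the 9 of the miR-379 to miR-410 stretch a median of 0.93, with 5 of 5 and 8 of 9 called higher. No tested member lay in Rian.

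**Figure D2:**
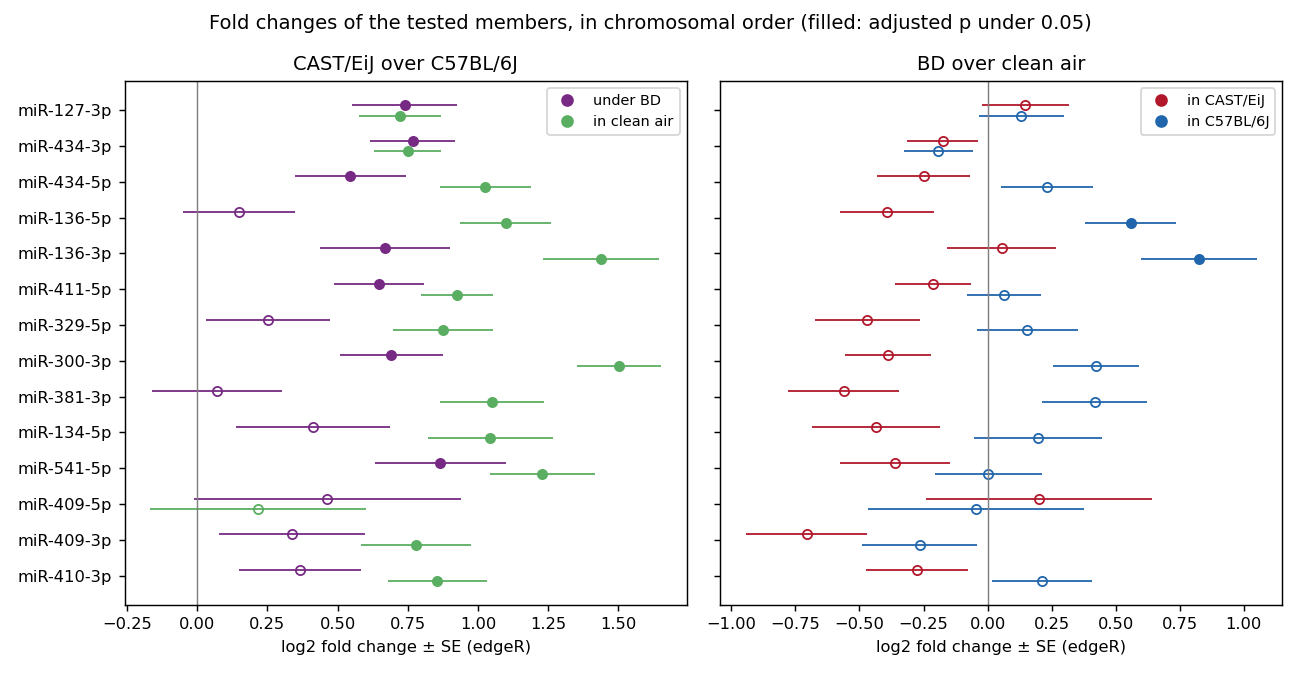
Log2 fold change with its SE from edgeR for each tested member, in chromosomal order from top to bottom; left, CAST/EiJ over C57BL/6J under BD (purple) and in clean air (green); right, BD over clean air in CAST/EiJ (red) and in C57BL/6J (blue). Filled points have an adjusted p under 0.05: 13 in clean air and 7 under BD between strains, none for BD in CAST/EiJ and 2 for BD in C57BL/6J.

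Under BD the strain difference was again in 1 direction, with 14 of 14 members above 0 (log2), but 7 passed the test, beside 18.4% of all miRNAs called higher. The median log2 fold change was 0.50 for the members and -0.04 for all miRNAs. The 7 were miR-127-3p, both arms of miR-434, miR-136-3p, miR-411-5p, miR-300-3p and miR-541-5p. With number 8 kept under its label 5 were called, and miR-136-3p and miR-434-5p were not (edgeR adjusted p = 0.0951 and 0.0692). Both calls were also lost with the compared groups alone (edgeR adjusted p = 0.114 and 0.0686). In all, they were lost in 6 of 31 and 8 of 32 alternatives. Beside the higher levels of the members in CAST/EiJ, the summed level of the 14 was 2744 to 3100 CPM in CAST/EiJ with BD and 1553 to 1999 CPM in C57BL/6J with BD. Without miR-127-3p these sums were 816 to 849 CPM and 442 to 664 CPM.

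The largest called difference under BD was that of miR-541-5p, with 192, 227 and 199 CPM in CAST/EiJ, against 88.8, 88.7, 144.7 and 130 CPM in C57BL/6J. The groups stood apart at a fold of 1.82 (log2 0.87 ± 0.23, edgeR adjusted p = 0.00638). miR-434-3p had 202, 188 and 181 CPM in CAST/EiJ, against 96.6, 104.3, 103.03 and 144.4 CPM in C57BL/6J, with no overlap and a fold of 1.70 (log2 0.77 ± 0.15, edgeR adjusted p = 0.000655). For miR-127-3p the levels were 2250, 2202 and 1928 CPM in CAST/EiJ, against 1111, 1519, 1271 and 1198 CPM in C57BL/6J. These ranges were apart too, and the fold of 1.67 (log2 0.74 ± 0.19, edgeR adjusted p = 0.00405) was close to the 1.65 of clean air. With numbers 1 to 10 as a covariate the log2 value of miR-127-3p under BD was 0.26 and the call was lost (edgeR adjusted p = 0.271), as were those of miR-136-3p (0.43), miR-411-5p (0.55) and miR-434-5p (0.54), with edgeR adjusted p from 0.0579 to 0.309. In that fit miR-136-5p was called higher in CAST/EiJ (0.64, edgeR adjusted p = 0.0315) and miR-409-5p lower (-1.14, edgeR adjusted p = 0.0145). As the covariate equals strain under BD, these shifts come from the clean air libraries and cannot decide the strain difference under BD.

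miR-300-3p had 61.9, 61.9 and 64.5 CPM in CAST/EiJ with BD, against 29.9, 32.2, 40.6 and 54.4 CPM in C57BL/6J with BD, a fold of 1.61 (log2 0.69 ± 0.18, edgeR adjusted p = 0.00566). miR-136-3p had 27.4, 12.9 and 16.9 CPM in CAST/EiJ, against 7.77, 13.7, 14.9 and 10.9 CPM in C57BL/6J. Here the groups overlapped, and the fold of 1.59 rested on a wide spread (log2 0.67 ± 0.23, edgeR adjusted p = 0.0276). Ranges were apart with CAST/EiJ higher for 6 of the 14 members, a share of members to set beside the 20.3% of all miRNAs with ranges apart in that direction under BD. Number 8, left out here, had 38.6 CPM of miR-300-3p, 106.9 of miR-411-5p, 24.0 of miR-434-5p and 115.8 of miR-541-5p. Each lay below the highest C57BL/6J library with BD, so with number 8 kept these ranges overlapped. Those of miR-127-3p and miR-434-3p stayed apart. miR-381-3p, apart in clean air, had 50.8, 45.9 and 48.0 CPM in CAST/EiJ with BD, against 34.9, 32.9, 55.2 and 62.0 CPM in C57BL/6J with BD. Its log2 fold change was 0.07 ± 0.23.

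BD against clean air moved few members within a strain. In C57BL/6J both arms of miR-136 rose and no other tested member passed, while 19.1% of all 320 miRNAs were called higher with BD in this strain, a larger share than among the members. The median log2 fold change was 0.18 for the members and 0.02 for all miRNAs, with 11 of 14 members above 0. miR-136-3p had 7.77, 13.7, 14.9 and 10.9 CPM in C57BL/6J with BD, against 6.59, 7.43, 6.12, 8.001 and 5.44 CPM in clean air. Of the libraries with BD, 3 lay above every library in clean air and number 15, the lowest, lay just below the highest of them. The fold was 1.77 (log2 0.82 ± 0.23, edgeR adjusted p = 0.0101).

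miR-136-5p had 43.1, 47.1, 65.8 and 58.4 CPM in C57BL/6J with BD, against 56.3, 37.3, 31.8, 26.4 and 31.5 CPM in clean air. All 4 libraries with BD lay above 4 of the 5 in clean air, and the 1 library numbered over 100 was the exception. The fold was 1.47 (log2 0.56 ± 0.18, edgeR adjusted p = 0.0212). The call was lost when the compared groups were fitted alone (edgeR adjusted p = 0.0975) or without 1 of several libraries, such as number 17 with BD (edgeR adjusted p = 0.102). With numbers 1 to 10 as a covariate its log2 value was 0.19 (edgeR adjusted p = 0.460), while miR-127-3p (0.51, edgeR adjusted p = 0.0204) and miR-409-5p (1.35, edgeR adjusted p = 0.00531) were called higher with BD. When the libraries numbered over 100 were left out, 4 members were called in C57BL/6J, the 2 arms of miR-136 plus miR-300-3p (log2 0.52, edgeR adjusted p = 0.0382) and miR-381-3p (log2 0.58, edgeR adjusted p = 0.0476).

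In CAST/EiJ no tested member was called in either direction for BD by edgeR, where 1.25% of all miRNAs were called higher and 1.56% lower. DESeq2 also called 0 members, and 5 had an unadjusted p under 0.05. The median log2 fold change was -0.32 for the members and -0.02 for all miRNAs, with 11 of the 14 below 0. The 3 smallest p-values belonged to miR-409-3p (log2 -0.71 ± 0.24, edgeR adjusted p = 0.111), miR-381-3p (log2 -0.56 ± 0.22, edgeR adjusted p = 0.169) and miR-300-3p (log2 -0.39 ± 0.17, edgeR adjusted p = 0.218).

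Behind these values, miR-381-3p had 50.8, 45.9 and 48.0 CPM in CAST/EiJ with BD, against a lowest level of 62.5, a median of 73.1 and a highest of 76.4 CPM in clean air. miR-300-3p had 61.9, 61.9 and 64.5 CPM with BD, against 73.8, 81.2 and 90.2 CPM in clean air. Ranges stood apart with BD lower for these 2 and for miR-136-5p and miR-329-5p, 4 of 14 members, while 6.56% of all miRNAs did. miR-409-3p had 9.53, 7.40 and 7.13 CPM with BD, against 8.58, 14.2 and 16.95 CPM in clean air, and these overlapped. Fitted with the compared groups alone, miR-381-3p passed the test (edgeR adjusted p = 0.0132). miR-409-3p passed without the libraries numbered over 100 (log2 -1.08, edgeR adjusted p = 0.025) and with a number covariate (log2 -1.07, edgeR adjusted p = 0.0169). For this comparison, numbers over 100 and numbers 1 to 10 as covariates give the same fit.

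The BD effect differed between the strains for 3 members, each with a lower BD to clean air ratio in CAST/EiJ than in C57BL/6J, while 15.3% of all miRNAs were called lower in this interaction test, a share close to that of the members. The interaction log2 values were -0.98 ± 0.30 for miR-381-3p (edgeR adjusted p = 0.0203), -0.95 ± 0.26 for miR-136-5p (edgeR adjusted p = 0.0104) and -0.81 ± 0.24 for miR-300-3p (edgeR adjusted p = 0.0169). The 3 had BD log2 fold changes of -0.56, -0.39 and -0.39 in CAST/EiJ, beside 0.42, 0.56 and 0.42 in C57BL/6J, in the order given. All 3 interaction calls were lost without the libraries numbered over 100 (edgeR adjusted p = 0.0674 for each), with values of -1.05, -0.88 and -0.97. They were also lost with numbers 1 to 10 as a covariate, where the values shrank to -0.47, -0.23 and -0.62 (edgeR adjusted p = 0.508, 0.689 and 0.266). As stated above, that fit cannot decide comparisons that use C57BL/6J with BD. With numbers over 100 as a covariate all 3 calls stayed, so the number settings gave different answers. With number 8 kept under its label miR-136-3p was called as well (log2 -0.94, edgeR adjusted p = 0.0346). miR-127-3p and miR-434-3p were at 0.02 and 0.02 in the same test.

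Several marker lists of lung and blood cells held genes or miRNAs that were called between the same groups. Smooth muscle and pericyte genes (Acta2, Myh11, Tagln, Cnn1, Pdgfrb and Cspg4) summed to 1223 to 2480 CPM in CAST/EiJ in clean air, against 936 to 1046 CPM in C57BL/6J in clean air. Of the 6 genes, 4 were called higher and 1 lower in that comparison by edgeR, and for BD in CAST/EiJ 4 were called lower and none higher. Of all genes, 60.4% were called in either direction between the strains in clean air, and 7.22% for BD in CAST/EiJ. With BD their sums were 996 to 1679 CPM in CAST/EiJ and 907 to 1177 CPM in C57BL/6J. The smooth muscle miRNAs of the miR-143 and miR-145 hairpins, with 4 rows, summed to 117698 to 129360 CPM in CAST/EiJ with BD and 155069 to 197135 CPM in CAST/EiJ in clean air. Their sums were 129337 to 161113 CPM in C57BL/6J with BD and 98577 to 131499 CPM in C57BL/6J in clean air. Of these 4 rows, 1 was called higher in CAST/EiJ in clean air, beside 21.2% of all 320 miRNAs. For BD in CAST/EiJ 1 was called lower, beside 1.56% of all miRNAs. For BD in C57BL/6J 1 was called higher, beside 19.1%. Between the strains under BD 1 was called lower in CAST/EiJ and none higher.

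Of 7 fibroblast genes, 3 were called higher and none lower in CAST/EiJ than in C57BL/6J in clean air. This is a smaller share than the 60.4% of all genes called in either direction. Their sums were 2272 to 3339 CPM in CAST/EiJ and 1763 to 2534 CPM in C57BL/6J. Of 6 tested leukocyte miRNAs, 4 were called lower in CAST/EiJ in clean air, 4 were called lower with BD in C57BL/6J and 6 were called higher in the interaction. The shares of all 320 miRNAs called in these directions were not computed, so the counts do not set the leukocyte list apart. The miRNAs of ciliated cells (miR-34b, miR-34c and miR-449) summed to 970 to 1616 CPM in CAST/EiJ and 11256 to 16992 CPM in C57BL/6J in clean air. With BD they summed to 832 to 1577 CPM in CAST/EiJ and 12194 to 16903 CPM in C57BL/6J. Of their 4 tested rows, 2 were called higher and 2 lower in CAST/EiJ in clean air. In clean air 3 of the 4 lung epithelial genes were called higher in CAST/EiJ by edgeR, with sums of 21256 to 31368 CPM in CAST/EiJ and 19273 to 23085 CPM in C57BL/6J. Of 5 rows of erythroid miRNAs, 4 were called higher in CAST/EiJ in clean air, beside 21.2% of all 320 miRNAs. Their sums were 11309 to 16275 CPM in CAST/EiJ and 9263 to 12918 CPM in C57BL/6J. Of 5 tested neuroendocrine and neural genes, 2 were called higher in CAST/EiJ in clean air and 2 under BD. Under BD 42.7% of all genes were called between the strains in either direction. This list summed to 8.76 to 15.1 CPM in CAST/EiJ and 4.84 to 7.87 CPM in C57BL/6J in clean air, and to 6.399 to 13.9 CPM in CAST/EiJ and 6.04 to 7.91 CPM in C57BL/6J with BD. No gene of the smooth muscle and fibroblast lists was at 0 in any RNA-seq library. Whether any of these lists was called more often than all genes or all miRNAs was not tested. The part of these cell types in the cluster's differences was not tested either.

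The 31 members with an unlisted value can be followed by how many libraries list them. The smallest listed value was a little over 10 counts and amounts to 1.32 to 4.94 CPM depending on the library, so an unlisted value means not detectable at about that depth and not absence. The CAST/EiJ libraries listed 26 or 27 of the 45 members with BD and 28 to 35 in clean air. The C57BL/6J libraries with BD, 3 of which were the deepest of all, listed 26 to 42, with 42 in number 17 at 7676679 miRNA counts and 26 in number 18 at 3146118. The C57BL/6J libraries in clean air listed 17 to 24. Depth was thus closer between the 2 groups in clean air, at 2672054 to 4184835 counts in CAST/EiJ and 2066588 to 3415561 in C57BL/6J.

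**Figure D3:**
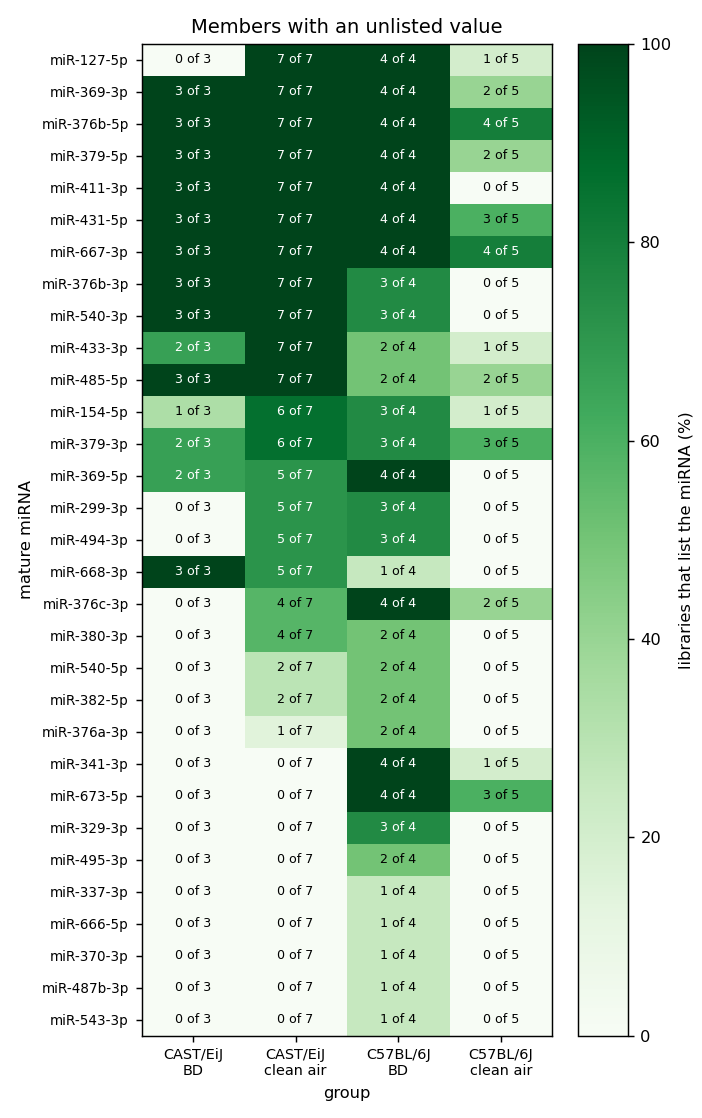
Number of libraries in each group that list each of the 31 members with at least 1 unlisted value; the colour gives the same as a percentage of the group's libraries. miR-411-3p is listed in every library of 3 groups and in 0 of 5 C57BL/6J libraries in clean air, and miR-673-5p and miR-341-3p in 0 CAST/EiJ libraries.

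Of these 31 members, 9 were listed in all libraries of 1 group and in no library of another. The share of all other miRNAs with an unlisted value that do so was not computed, so the count does not set the members apart. miR-411-3p, the minor arm of the abundant miR-411-5p, was listed in all 3 CAST/EiJ libraries with BD at 4.502 to 4.96 CPM, in all 7 in clean air at 5.09 to 13.8 CPM and in all 4 C57BL/6J libraries with BD at 3.95 to 8.71 CPM, and in none of the 5 C57BL/6J libraries in clean air. miR-376b-3p, of a family known for adenosine-to-inosine editing, and miR-540-3p were listed in every CAST/EiJ library with BD and in clean air and in none of the C57BL/6J libraries in clean air. Their listed CAST/EiJ levels reached 7.57 CPM for miR-376b-3p and 8.33 CPM for miR-540-3p. The same contrast held between CAST/EiJ with BD and C57BL/6J in clean air for miR-668-3p. miR-369-5p was listed in every C57BL/6J library with BD, at 1.38, 1.49, 1.60 and 3.95 CPM, and in none in clean air. The smallest listed value amounts to 3.01 to 4.94 CPM in the C57BL/6J libraries in clean air. Levels as low as most of these would be unlisted there, so for miR-369-5p listing alone cannot show a difference.

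The opposite pattern was seen for miR-673-5p and miR-341-3p. Neither was listed in any of the 3 CAST/EiJ libraries with BD or the 7 in clean air, and both were listed in all 4 C57BL/6J libraries with BD. miR-673-5p had 3.63, 2.84, 3.46 and 4.86 CPM there and was listed in 3 of the 5 C57BL/6J libraries in clean air at 5.18, 3.79 and 5.16 CPM. miR-341-3p, which lies in Rian, had 2.13, 3.25, 4.52 and 3.65 CPM with BD and was listed in 1 of 5 in clean air, at 4.39 CPM. In CAST/EiJ the smallest listed value amounts to 3.24 to 4.17 CPM with BD and 2.48 to 3.96 CPM in clean air. The C57BL/6J levels with BD of both miRNAs lay mostly near these values, so that listing alone cannot show a difference. The sources used here do not give any use of CAST/EiJ sequence in alignment. In clean air, where depth was closer, miR-673-5p was thus listed in C57BL/6J alone, opposite to the direction of the 13 called members.

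miR-127-5p, the minor arm of miR-127, was listed in none of the 3 CAST/EiJ libraries with BD and in all 7 in clean air at 4.86 to 8.14 CPM. The library numbered 8 did list it, at 4.43 CPM. miR-376c-3p was listed in none of the CAST/EiJ libraries with BD, in 4 of 7 in clean air, in all 4 C57BL/6J libraries with BD at 3.63 to 3.99 CPM and in 2 of 5 in clean air. The smallest listed value amounts to 3.24 to 4.17 CPM in CAST/EiJ with BD, so for miR-376c-3p listing alone cannot show a difference there.

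Where both arms of a hairpin were listed, their ratio showed which arm dominated. In miR-136 the 5p arm led, with a mean log2 5p over 3p count of 1.71 ± 0.43 (SD, n = 3) in CAST/EiJ with BD, 2.10 ± 0.32 (n = 7) in CAST/EiJ in clean air, 2.20 ± 0.31 (n = 4) in C57BL/6J with BD and 2.41 ± 0.49 (n = 5) in C57BL/6J in clean air. These ranges overlapped. In miR-434 the 3p arm led in every library, and in miR-127 the same log2 ratio lay between -8.98 and -7.64 where both arms were listed.

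miR-409 stood out by its arms. Its 5p arm led in the CAST/EiJ libraries with BD, at a log2 ratio of 1.39 ± 0.21 (SD, n = 3), and in both C57BL/6J groups, at 1.24 ± 0.34 with BD (n = 4) and 1.02 ± 0.35 in clean air (n = 5). In CAST/EiJ in clean air the ratio ran from -0.92 to 1.22. The split followed the title numbers: the 6 libraries numbered over 100, the C57BL/6J one included, had -0.92 to 0.79, and the 10 numbered 1 to 10, number 8 included, had 0.74 to 1.60.

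**Figure D4:**
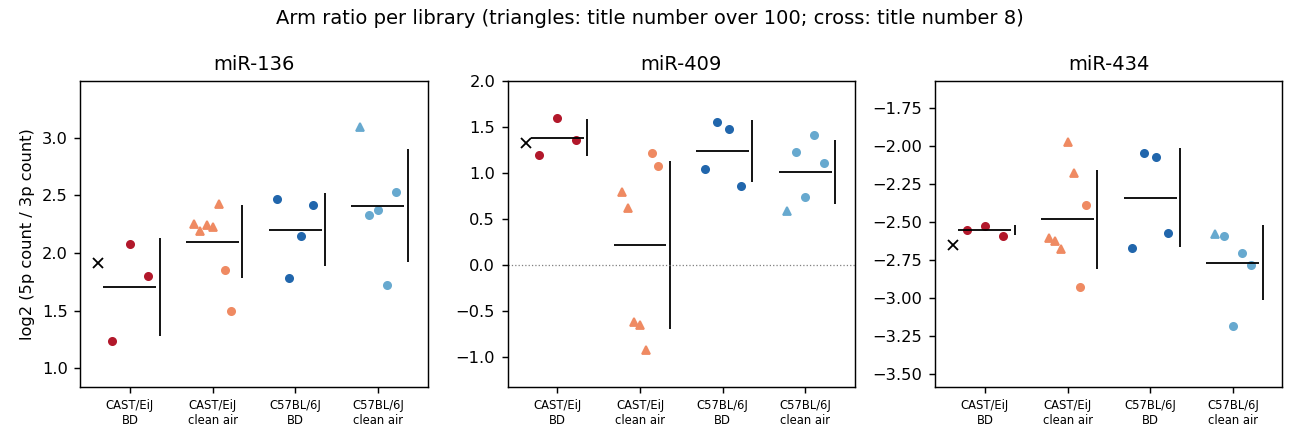
Log2 ratio of 5p to 3p counts per library for miR-136, miR-409 and miR-434, by group; lines are means and bars 1 SD without the library numbered 8 (cross), and triangles mark title numbers over 100. In miR-409 the triangles reach down to -0.92, while libraries numbered 1 to 10 lie between 0.74 and 1.60.

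The level of miR-409-5p, chosen for description after its values were seen, moved in the same way. It had 16.8, 13.2, 9.21, 6.98 and 7.85 CPM in the 5 CAST/EiJ libraries numbered over 100, against 39.6 and 35.6 CPM in libraries 1 and 2 of the same strain and air. In C57BL/6J in clean air the library numbered over 100 had 8.48 CPM and numbers 3 to 6 had 18.2, 14.6, 16.7 and 19.2 CPM. Between strains in clean air it was the member not called (log2 0.22 ± 0.38, edgeR adjusted p = 0.667), and without the libraries numbered over 100 it was called higher in CAST/EiJ (log2 1.11, edgeR adjusted p = 0.000472). Its BD value in CAST/EiJ changed sign on the same step, at log2 0.20 ± 0.44 with all libraries and -0.84 without those numbered over 100.

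Other members moved less with the numbers. Within CAST/EiJ in clean air, 11 of the 14 were lower in the 5 libraries numbered over 100 than in numbers 1 and 2, with a median log2 difference of -0.28. miR-127-3p was among them, with 1337 to 1841 CPM in numbers over 100 against 2456 and 2753 CPM in numbers 1 and 2. In CAST/EiJ miR-136-5p went the other way, with 73.2 to 89.9 CPM over 100 against 64.7 to 68.2 CPM in numbers 1 and 2. In C57BL/6J in clean air the single library numbered over 100 had a median log2 difference of 0.26 from numbers 3 to 6, above all 4 of them for 5 members and below all for 3.

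In RNA-seq several genes of the region and its surroundings were called between strains in clean air, and none was called for BD. All genes showed the same order, with 60.4% called between strains in clean air. For BD, 10.7% were called in C57BL/6J and 7.22% in CAST/EiJ. Whether the region differed from all genes in this was not tested. The noncoding host transcripts Rian and Mirg were higher in CAST/EiJ in clean air, and so was Rtl1, in a comparison in which 60.4% of all genes were called in either direction. Rian had 28.1, 32.2 and 40.0 CPM as lowest, median and highest in CAST/EiJ in clean air, against 12.4, 13.5, 11.03, 12.3 and 10.3 CPM in C57BL/6J in clean air. The groups were far apart, at a fold of 2.88 (log2 1.52 ± 0.14, edgeR adjusted p = 3.89e-09 over 17377 genes). Mirg, the host of the miR-379 to miR-410 stretch, was a low transcript with 0.935, 1.46 and 2.33 CPM in CAST/EiJ, against 0.452, 0.675, 0.368, 0.576 and 0.305 CPM in C57BL/6J. These ranges did not meet, and the fold was 3.15 (log2 1.65 ± 0.28, edgeR adjusted p = 2.66e-05).

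Rtl1, a retrotransposon-derived gene needed by the placenta, had a log2 fold change of 1.29 ± 0.19 in clean air (edgeR adjusted p = 2.64e-06). Its reads and those of the antisense transcript that carries miR-127 and miR-136 overlap, and because the sources used here do not state that counting used strand, the 2 cannot be told apart. Meg3, at the start of the maternal unit, was not called in clean air, with 9.49, 11.6 and 29.8 CPM as lowest, median and highest in CAST/EiJ, against 5.29, 11.9, 15.7, 16.7 and 9.46 CPM in C57BL/6J (log2 0.42 ± 0.30, edgeR adjusted p = 0.225). Meg3 also moved with the title numbers: in CAST/EiJ it had 9.49 to 12.7 CPM in numbers over 100, against 24.4 and 29.8 CPM in numbers 1 and 2. Without the libraries numbered over 100 it was called higher in CAST/EiJ in clean air (log2 1.01, edgeR adjusted p = 0.00332).

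**Figure D5:**
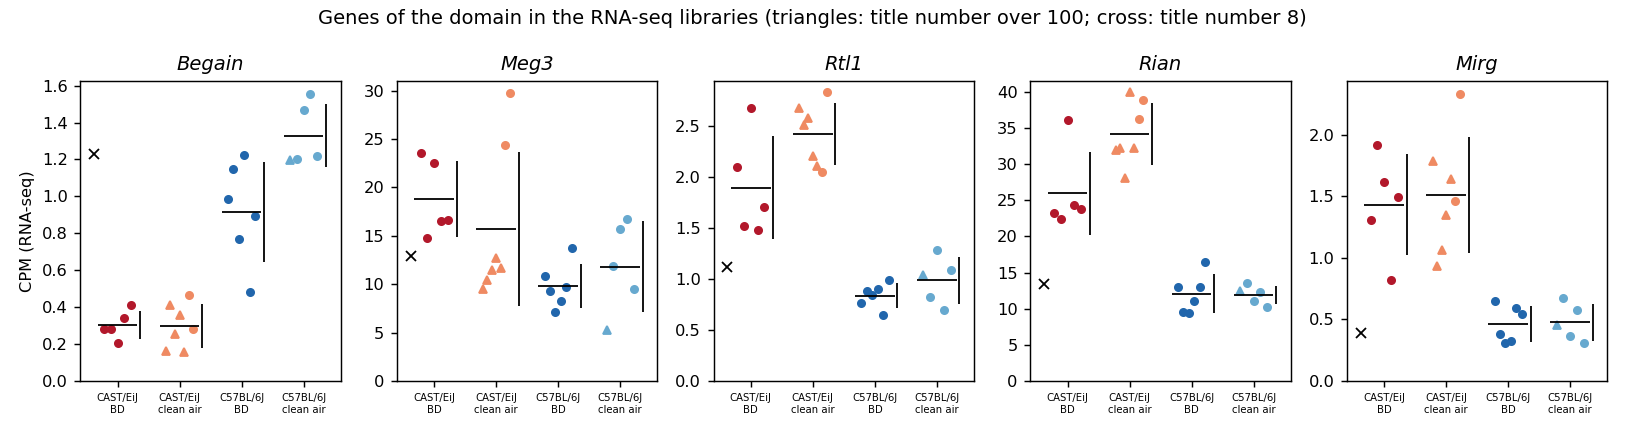
RNA-seq level (CPM, linear axes from 0) of 5 genes of the region in each library, by group; lines are means and bars 1 SD without the library numbered 8 (cross), and triangles mark title numbers over 100. Rian lies at 28.1 to 40.0 CPM in CAST/EiJ in clean air and at 10.3 to 13.5 CPM in C57BL/6J in clean air, and Begain shows the opposite order.

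Under BD the strain differences were 1.11 ± 0.14 for Rian (edgeR adjusted p = 6.11e-07), 1.61 ± 0.27 for Mirg (4.07e-05), 1.18 ± 0.18 for Rtl1 (1.4e-05) and 0.94 ± 0.30 for Meg3 (0.0148), all as log2 with edgeR's adjusted p, where 42.7% of all genes were called in either direction. Dlk1 and Dio3, which name the region, were too low to be tested, with at most 0.397 CPM of Dlk1 and 0.566 CPM of Dio3 in any library.

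Neighbouring genes moved in both directions. Begain, the gene next to Dlk1, was lower in CAST/EiJ, with 0.299 ± 0.119 CPM in CAST/EiJ (SD, n = 7) and 1.33 ± 0.17 CPM in C57BL/6J (n = 5) in clean air, a log2 fold change of -2.07 ± 0.26 (edgeR adjusted p = 3.28e-07). Wars, which encodes tryptophanyl-tRNA synthetase, was also lower (log2 -0.66 ± 0.11, edgeR adjusted p = 1.16e-05). Slc25a29, a mitochondrial amino acid carrier, and Wdr25 were higher by log2 values of 0.69 and 0.34, the call for Wdr25 being lost with the compared groups alone (edgeR adjusted p = 0.0596) and, under BD, with number 8 kept (edgeR adjusted p = 0.0891), and Yy1, Ppp2r5c and Dync1h1 were not called.

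For BD no tested gene of the region or its surroundings was called in either strain or in the interaction by edgeR, while 10.7% of all genes were called for BD in C57BL/6J and 7.22% in CAST/EiJ. The nearest was Dync1h1, the dynein heavy chain, in CAST/EiJ (log2 0.21 ± 0.07, edgeR adjusted p = 0.0506), which passed in 6 of 30 alternatives, DESeq2 among them (adjusted p = 0.0128). Rian had 23.3, 22.4, 36.1, 24.4 and 23.8 CPM in CAST/EiJ with BD, against the 28.1 to 40.0 CPM in clean air given above. Of the 5 libraries with BD, 4 lay below every library in clean air and 1 lay among them (log2 -0.39 ± 0.13, edgeR adjusted p = 0.0649). Without that library, number 12, the value was -0.54 and passed the test (edgeR adjusted p = 0.0199), and its interaction value was called too (-0.57, edgeR adjusted p = 0.0373). Its BD value also passed with DESeq2 (adjusted p = 0.0352) and with number 8 kept under its label (log2 -0.51, edgeR adjusted p = 0.0336). In C57BL/6J the BD value of Rian was 0.02 ± 0.14 and that of Mirg -0.01 ± 0.31, beside the calls for both arms of miR-136.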

How the data were processed

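Lung RNA of mice was sequenced as small RNA (20 libraries) and as RNA-seq (24 libraries). The authors deposited raw read counts per gene for RNA-seq and estimated counts per mature miRNA, some not whole. Per the submitters' processing notes, GSNAP was used for RNA-seq and Bowtie for small RNA, on genome build mm9; the counting program, and any use of CAST/EiJ sequence, are not given in the sources used here. Estimated counts were rounded. miRNAs listed in all 20 libraries (320) and genes passing filterByExpr (17377) were fitted with edgeR 4.0.16 (R 4.3.3; TMM, robust quasi-likelihood test, Benjamini-Hochberg, threshold 0.05), all groups in 1 model of 19 small RNA and 23 RNA-seq libraries. SE is the log2 fold change over the square root of F. The member list and the marker and gene lists were chosen with earlier results of these data known. Members named with values are the 4 most abundant, the 5 largest called folds per comparison (or 3 smallest p), members listed throughout 1 group and unlisted throughout another, and exceptions stated. On simulated small RNA counts for BD in CAST/EiJ (320 miRNAs), 55% of 1.5-fold and 100% of 2-fold changes were recovered. Alternatives included DESeq2 1.42.0.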

Additional observations from a re-analysis of the deposited data

Results flagged for a closer look

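A few values stood apart from their own group, by the gap of the highest or lowest library to its nearest neighbour relative to the range; 74 groups of values were tested, 5 were marked, and chance marks about 1 in 20. miR-541-5p had 445 CPM in 1 library numbered over 100 (replicate 4), against 218 to 264 CPM in the other CAST/EiJ libraries in clean air. miR-136-3p had 23.0 CPM in number 2, against 16.02 to 18.9 CPM in the same group. In C57BL/6J with BD, miR-434-3p had 144.4 CPM in number 18, against 96.6 to 104.3 CPM in the other 3, and miR-434-5p had 15.2 CPM in number 15, against 24.3 to 25.2 CPM. Rian had 36.1 CPM in number 12 of the CAST/EiJ libraries with BD, against 22.4 to 24.4 CPM in the other 4.

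The BD effect differed between the strains, by the interaction term, for miR-136-5p (log2 -0.95), miR-300-3p (-0.81) and miR-381-3p (-0.98), as given above.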

How the results depend on the processing

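The count of called members between strains in clean air was 13 in every fit that left out 1 library and rose to 23 and 28 of 34 tested when unlisted values were taken as 0 or 5 counts. Under BD it was 5 to 8 in fits leaving out 1 library, and 17 with unlisted values at 5. For BD in C57BL/6J (2 called) it was 0 with a mean of at least 20 CPM (9 members tested), 1 with the compared groups alone, 4 without numbers over 100 or with them as a covariate, 3 with numbers 1 to 10 as a covariate, 8 and 4 with unlisted values at 0 and 5, and 1 to 4 leaving out 1 library (4 without the C57BL/6J library numbered over 100; 1 without number 17, 4, 5 or 6). For BD in CAST/EiJ (0 called) it was 1 with the compared groups alone, with a number covariate or with unlisted values at 0 or 5. Either number covariate gives the same fit here. The count was 2 without numbers over 100, and 0 to 0 leaving out 1 library. The interaction count (3) was 0 without numbers over 100, while the 3 calls stayed with numbers over 100 as a covariate. It was 1 with numbers 1 to 10 as a covariate (miR-409-5p, none of the 3). It was 10 and 9 with unlisted values at 0 and 5, and 2 to 5 leaving out 1 library (5 without number 15). miR-409-5p changed sign: to log2 -0.84 for BD in CAST/EiJ without numbers over 100, and with numbers 1 to 10 as a covariate to 1.35 for BD in C57BL/6J, -1.14 between strains under BD and -2.09 for the interaction. The causes were not tested, except that unlisted values at 0 or 5 add members to the fit and, being below every listed value, partly fix its outcome. Of the members so added, 9 at 0 and 14 at 5 were called higher in CAST/EiJ in clean air. In both fits 1 was called lower there, miR-673-5p. Under BD, 0 were called higher and 3 lower in CAST/EiJ at 0, and 8 higher and 2 lower at 5. Members near the listing floor cannot be ordered. No paired analysis was possible because the title numbers of the compared groups do not repeat.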
